A study of Drosophila melanogaster with 12 samples.

Results

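The proteasome is the large protease that degrades proteins tagged with ubiquitin in the cytoplasm and nucleus of every eukaryotic cell. Its barrel-shaped core particle is a stack of rings of alpha and beta subunits, with the peptide-cutting sites on the inner face of the beta rings. A regulatory particle caps the barrel. The base of this cap holds the Rpt ATPases, which unfold the substrate and feed it into the core, together with scaffold and ubiquitin-receptor subunits, and its lid holds further Rpn subunits, among them the enzyme that removes the ubiquitin chain. Genes of the complex usually share one programme of transcription. In *Drosophila* several subunits also have copies under a T or R suffix, called testis-type here.

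Members were all genes of the table whose FlyBase symbol began with Prosalpha or Prosbeta, or with Rpn or Rpt followed by a digit. The rule found 48 of 17521 genes. They were divided into 32 ubiquitous subunits, 14 of the core particle and 18 of the regulatory particle, and 16 testis-type copies, whose symbols carry a T or R suffix. The rule used names and no measured value, so the term testis-type does not say where a copy is expressed.

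RNA sequencing covered 12 samples. The 3 controls were wild-type eye discs of late-stage larvae, kept in the abdomen of an adult host and taken out 1 day later. Tumours carried ph505, a loss-of-function allele of both polyhomeotic genes (*ph-p* and *ph-d*, Polycomb group), and had been passed from host to host every week 4, 8 or 14 times, with 2 samples at each age. The 3 metamorphed samples were ph505 cells from adult flies, which had gone through metamorphosis and were no longer tumorigenic. All hosts were wild type for *ph*. Per the methods, ph505 clones were made with MARCM (*ph505 FRT19A* over *tub-Gal80 FRT19A*, with *ey-flp act>STOP>Gal4 UAS-GFP*), so that they were homozygous for ph505 and marked by GFP. The *ey-flp* recombinase is also active in leg and genital discs, so the adult ph505 cells were not of the eye disc alone. Metamorphed wild-type cells are not analysed here, and the metamorphed libraries were run on another sequencer than the rest. Controls and tumours had been kept in hosts, and metamorphed cells were taken from the adult flies themselves. Metamorphosis, genotype, sequencer and the stay in a host therefore cannot be told apart where metamorphed cells are compared with controls. Against tumours, metamorphosis, sequencer and the stay in a host cannot be told apart. Where tumours are compared with controls, genotype, time in hosts and repeated transplantation cannot be told apart. RNA was collected independently for each replicate according to the methods. They do not state how many animals went into one sample, or whether tumours of different ages descended from one line.

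Reads on genes ranged from 2072498 in control 1 to 81447816 in a metamorphed library. The fewest reads on any ubiquitous subunit were 95, for *Rpn8* in control 1, and the next lowest library minimum was 985. Replicates differed by more than counting error, since chi-square over genes, divided by its degrees of freedom, was 66.8 or more. The normalisation factor of the second 14-week tumour was 0.611, against 0.848 to 1.24 in the other 11 libraries. In CPM, the reads on a gene scaled to the library size as the authors normalised it, *ph-p* read 53.3 to 84.4 in controls, 73.5 to 164 in tumours and 206 to 223 in metamorphed cells, and *ph-d* 58.5 to 81.5, 43.9 to 132 and 90.2 to 142. The sources used here do not say whether the allele removes RNA, so these levels check no label. Summed markers of the eye disc (8 genes, among them *eya*, *so* and *gl*) stood at 1121 to 1334 CPM in controls, 37.2 to 84.7 in tumours and 77.8 to 140 in metamorphed cells. Ovary markers summed to 685 CPM in control 2, of which *osk* made 531 and *orb* 145, to 60.0 in control 1, and to 2.67 or less in the other 10 libraries.

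All levels are in CPM unless said otherwise. Fold changes come from limma on log2(CPM + 1), fitted over 10177 genes that reached 1 CPM in at least 2 samples, and a gene was called at an adjusted p (Benjamini-Hochberg, over all genes tested) under 0.05. The 32 ubiquitous subunits all passed that filter. They lay on 5 chromosome arms (dm6), with 10 on 2R, 9 on 3R, 5 on 3L, and 4 each on 2L and X. No pair of ubiquitous members lay closer together than *Rpn9* and *Rpt5* (*Rpn9* at chr3R:23731375-23733462 on the minus strand), 19413 bases apart, so the genes form no cluster. Core genes were short, with 815 to 1215 exonic bases (median 971), and regulatory genes longer, with 995 to 3412 (median 1589).

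Per kilobase of exon the subunit genes were not at equal levels. In controls the mean level ran from 36.5 CPM per kb for *Rpn8*, the inactive partner of the lid deubiquitinase, to 354 for *Prosbeta5*, which carries the chymotrypsin-like site of the core. *Prosbeta5* was also the highest member per kb in tumours (1155) and in metamorphed cells (518). *Rpn8* was the lowest in metamorphed cells (54.7), and *Rpn2*, the largest scaffold of the base, was the lowest in tumours (27.7). From lowest to highest the range was 9.69-fold in controls, 41.7-fold in tumours and 9.48-fold in metamorphed cells. The median core gene stood at 119 CPM per kb and the median regulatory gene at 92.8 in controls, at 282 and 123 in tumours, and at 149 and 142 in metamorphed cells. These levels are descriptions, with no test.

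**Figure D1:**
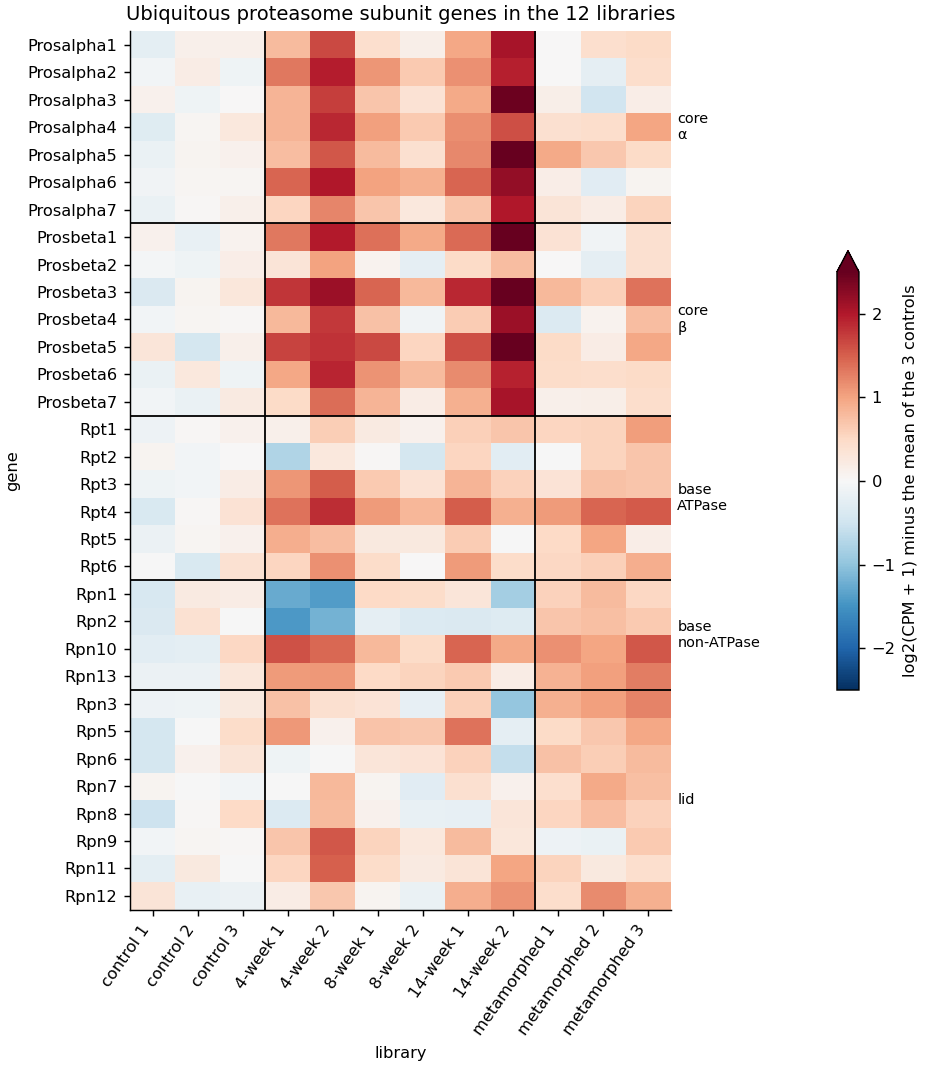
Level of each ubiquitous subunit gene (rows, grouped by subcomplex) in each library (columns), as log2(CPM + 1) minus the mean of the 3 controls, with red above and blue below that mean; values above 2.5 share the darkest red. Core genes are redder in the tumour columns than in the others, most of all in the second 4-week and second 14-week tumours, and *Rpn1* and *Rpn2* are blue in both 4-week tumours.

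Tumours were first compared with the transplanted wild-type discs, taking the mean of the 3 tumour ages. Of the 32 ubiquitous subunits, 17 were higher in tumours and 1 was lower, where 36% of all genes tested were called (14.4% higher and 21.6% lower). The median subunit rose by 0.77 on the log2 scale, and the median of all genes was −0.19. The calls were uneven between the particles. In the core, 13 of 14 genes were higher (median 1.21), and in the regulatory particle 4 of 18 were higher and 1 was lower (median 0.47). With CPM of total reads these counts were 9 in the core (median 0.89) and 1 higher and 1 lower in the regulatory particle (median 0.15), while the median of all genes moved by −0.24. All 6 tumours lay above all 3 controls for 11 core genes and 4 regulatory genes, and below them for none, where this held for 12.2% of all genes upward and 19.1% downward.

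Among the alpha subunits, whose ring forms the gate of the core, all 7 were higher in tumours, by 0.90 (*Prosalpha7*) to 1.50 (*Prosalpha6*). *Prosalpha6* stood at 132, 144 and 143 CPM in the controls and at 259 to 640 in the tumours, with a median of 383. The groups did not overlap, and the difference was 1.50 ± 0.24 (SE; adjusted p = 0.00036), a 2.82-fold rise. *Prosalpha2* read 139, 166 and 136 CPM in controls against 232 to 574 (median 345) in tumours, again without overlap, and rose by 1.36 ± 0.26 (adjusted p = 0.0017). *Prosalpha3*, the subunit that closes the gate in yeast, read 251, 216 and 235 CPM against 301 to 1283 (median 435). Its lowest tumour lay above its highest control, and it rose by 1.17 ± 0.33 (adjusted p = 0.014).

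The beta subunits rose in 6 of 7 cases. The highest fold change of all members was that of *Prosbeta3*, a beta subunit without a cutting site, with 128, 173 and 202 CPM in controls and 290 to 1713 (median 590) in tumours. It rose 3.75-fold (1.91 ± 0.33 on the log2 scale, adjusted p = 0.00071). *Prosbeta1*, which holds the caspase-like site, read 159, 130 and 158 CPM in controls and 288 to 1168 (median 390) in tumours. Its groups were apart, and it rose 3.17-fold (1.67 ± 0.32, adjusted p = 0.0015). *Prosbeta5* read 487, 290 and 433 CPM against 573 to 2231 (median 1256) and rose 3.09-fold (1.63 ± 0.32, adjusted p = 0.0019). The exception was *Prosbeta2*, which holds the trypsin-like site. It read 91.3, 87.6 and 106 CPM in controls and 81.2 to 192 (median 125) in tumours. These ranges overlapped, and the difference was 0.41 ± 0.25 (adjusted p = 0.22). The 3 catalytic subunits of the core thus differed in their calls, 2 past the threshold and 1 not. The difference between *Prosbeta2* and the others was itself not tested.

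In the base of the regulatory particle, *Rpt3* and *Rpt4* were higher among the 6 ATPases. *Rpt4* read 118, 157 and 198 CPM in controls and 273 to 559 (median 361) in tumours, a rise of 1.25 ± 0.25 (adjusted p = 0.0022) without overlap. *Rpt2* read 183, 166 and 177 CPM in controls, inside a tumour range of 104 to 256 (−0.11 ± 0.29, adjusted p = 0.82). *Rpt1*, *Rpt5* and *Rpt6* had estimates of 0.40 to 0.61 that did not pass. The ubiquitin receptors *Rpn10* and *Rpn13* were both called higher. *Rpn10* read 168, 170 and 288 CPM in controls and 284 to 615 (median 468) in tumours (1.12 ± 0.26, adjusted p = 0.0047), with 1 tumour just below the highest control. *Rpn13* read 97.2, 97.7 and 131 CPM against 123 to 231 (median 164), a rise of 0.67 ± 0.22 (adjusted p = 0.029).

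The largest regulatory subunits, the scaffolds *Rpn1* and *Rpn2*, were not called higher. *Rpn2* read 109, 183 and 140 CPM in controls and 51.4 to 121 (median 110) in tumours. It was the single ubiquitous member called lower (−0.64 ± 0.22, adjusted p = 0.039), and the groups overlapped, since control 1 lay within the tumour range. That call was lost without control 2 or 3, the first 4-week tumour or either 8-week tumour, and with the trend of each library against transcript length removed *Rpn2* turned to 0.10 (adjusted p = 0.77). *Rpn1*, where shuttle receptors dock, read 138, 215 and 208 CPM in controls and 69.3 to 258 (median 163) in tumours (−0.38 ± 0.27, adjusted p = 0.30).

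*Sem1*, whose homologue is a lid subunit in yeast, lay outside the symbol rule and is described with the ubiquitin pathway below. None of the 8 lid genes under the rule was called by limma. Of these 8, 2 had an unadjusted p under 0.05, and limma-voom on the recovered reads called 0. Their estimates were all above 0, from 0.08 for *Rpn8* to 0.69 for *Rpn9*. *Rpn11*, the deubiquitinase of the lid, was at 0.67 ± 0.26 (adjusted p = 0.062). *Rpn3*, a horseshoe-shaped scaffold of the lid, read 173, 175 and 224 CPM in controls and 96.9 to 315 (median 246) in tumours, so that the controls lay inside the tumour range (0.15 ± 0.31, adjusted p = 0.75).

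Of the 18 calls between tumour and control, 8 held under each alternative that was run, namely *Prosalpha2*, *Prosalpha5*, *Prosalpha6*, *Prosbeta1*, *Prosbeta3*, *Prosbeta5*, *Prosbeta6* and *Rpt4*, and 11 held without each library in turn. The others were lost without at least 1 library, *Prosbeta4* (adjusted p = 0.048) without any control, the second 4-week, first 8-week or second 14-week tumour, or metamorphed library 1 or 2. Without control 2, the library in which ovary and, at 963 CPM, fat body markers stood highest among the controls, 9 core and 3 regulatory genes were higher and none lower.

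**Figure D2:**
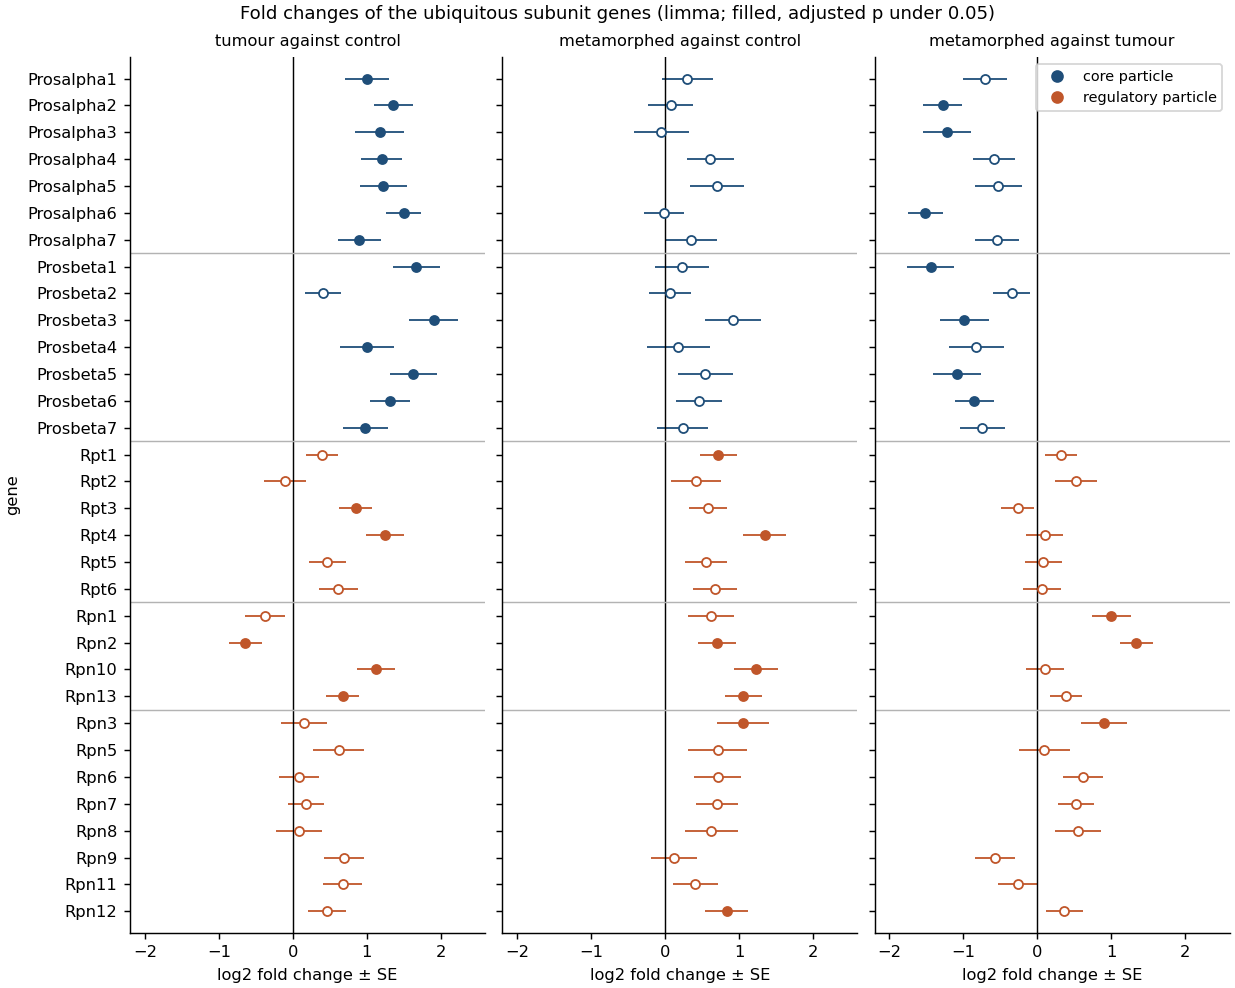
Log2 fold change with its standard error (limma, all 12 libraries in one fit) of the 32 ubiquitous subunit genes in the 3 main comparisons, blue for the core and orange for the regulatory particle, filled where the adjusted p was under 0.05. In tumour against control 13 of 14 core points are filled and lie right of 0, while in metamorphed against control the 7 filled points all belong to the regulatory particle; under total-read or quantile scaling the median core gene of that panel moves below 0.

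Because both particles were measured in each library, their balance could be read sample by sample. The median core gene minus the median regulatory gene, in log2(CPM + 1), was −0.14, −0.29 and −0.33 in the controls. In tumours it was 0.086 and 0.88 at 4 weeks, 0.47 and 0.15 at 8 weeks, and 0.23 and 1.75 at 14 weeks. In metamorphed cells it was −0.58, −0.89 and −0.68. All tumours thus lay above all controls, and all metamorphed libraries below them. These levels were not divided by length, so they compare libraries and do not rank the particles. Per kb the median core gene lay above the median regulatory gene in controls (119 against 92.8), tumours (282 against 123) and metamorphed cells (149 against 142). Summed CPM, also not divided by length, gave the same order of groups. The core to regulatory ratio was 0.682 to 0.840 in controls, 0.915 to 3.27 in tumours and 0.468 to 0.613 in metamorphed cells. The highest ratio belonged to the second 14-week tumour, the library with the low normalisation factor. In that library a single gene (FBgn0085364, without a symbol in the annotation used) took 13.7% of all reads, against 5.94% or less for the top gene elsewhere. Without that tumour and the shallow control 1 (an alternative chosen after seeing the data), 8 core and 3 regulatory genes were higher in tumours and 1 regulatory gene was lower.

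**Figure D3:**
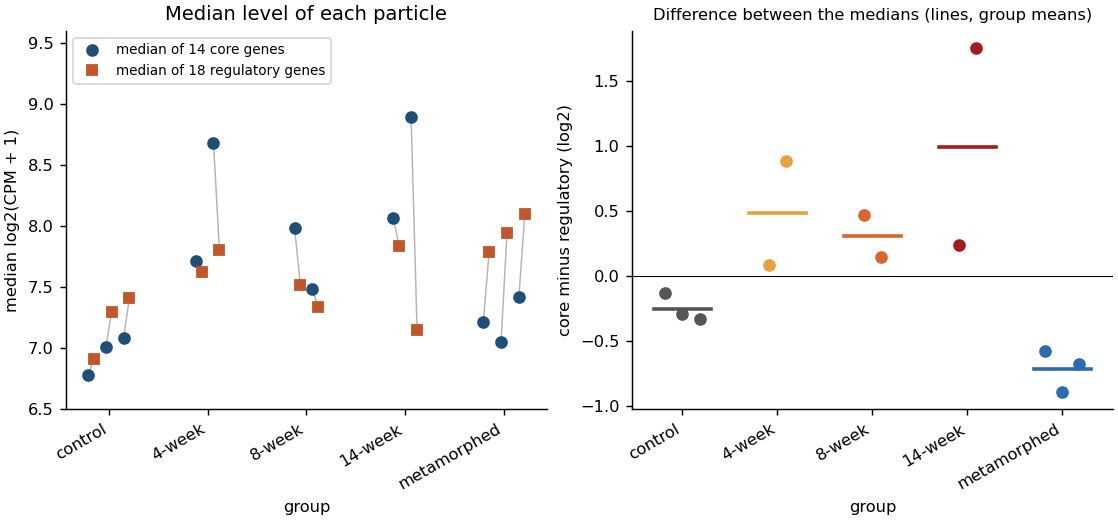
Left, the median log2(CPM + 1) of the 14 core genes (circles) and the 18 regulatory genes (squares) in each library, joined by a line; right, the difference between these medians, with points for libraries and horizontal lines for group means. The difference lies below 0 in all controls (−0.14 to −0.33), above 0 in all 6 tumours (0.086 to 1.75) and lowest in the metamorphed cells (−0.58 to −0.89). Levels are not divided by length, so the sign of the difference does not rank the particles.

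The spread among tumours was wider than in the other groups. From the lowest to the highest of the 6 tumours the median subunit ranged 2.47-fold, against 1.31-fold over the 3 controls and 1.40-fold over the 3 metamorphed libraries, although 6 samples will show a wider range than 3. Core genes were the more variable, at a median of 3.75-fold and up to 5.92-fold for *Prosbeta3*, compared with 2.24-fold in the regulatory particle. The second 8-week tumour held the lowest tumour value of all 14 core genes. The second 14-week tumour held the highest of 11 of them, and the second 4-week tumour that of the other 3. *Rpn1* and *Rpn2* went another way: they were lowest in the 4-week tumours, where *Rpn1* read 75.9 and 69.3 CPM against 101 to 258 at later ages, and *Rpn2* 51.4 and 61.3 CPM against 109 to 121.

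The tumour ages were then compared with the controls separately. At 4 weeks 16 subunits were higher and 2 lower (10 and 0 in the core), where 34.2% of all genes were called (13.1% higher and 21% lower). At 8 weeks neither limma nor limma-voom called any, where limma called 12.5% of all genes (2.7% higher and 9.84% lower). There were 8 subunits at an unadjusted p under 0.05, all of them higher, a looser threshold than that of these shares. At 14 weeks 16 were higher and none lower (13 and 0 in the core), where 26.6% of all genes were called (11.7% higher and 14.9% lower). The median subunit was at 1.05, 0.47 and 0.89 at the 3 ages. Both members that were lower at 4 weeks were scaffolds of the base, *Rpn1* (−1.33 ± 0.35, adjusted p = 0.011) and *Rpn2* (−1.31 ± 0.29, adjusted p = 0.0043). With the length trend of each library removed neither was called (*Rpn1* −0.37, adjusted p = 0.35, and *Rpn2* −0.25, adjusted p = 0.56, by limma), and without the second 4-week tumour the call of *Rpn1* was lost (adjusted p = 0.075). At 14 weeks *Prosbeta3* read 611 and 1713 CPM and stood 6.19-fold above control (2.63 ± 0.43, adjusted p = 0.00079). This fold was 3.69 without the second 14-week tumour (adjusted p = 0.012) and 10.4 without the first.

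The ages were also compared with each other, with only 2 libraries at each. No ubiquitous member was called between 4 and 8, 8 and 14, or 4 and 14 weeks by limma or by limma-voom, while 0.00983%, 0% and 0.0983% of all genes were called by limma. There were 6, 8 and 2 members at an unadjusted p under 0.05, a looser threshold than the one behind these shares. The lack of calls at 8 weeks is therefore not shown to be a difference from the other ages. With 2 libraries at each age, single libraries moved these counts. Without the second 4-week tumour 6 subunits were higher and 1 lower at 4 weeks, without the second 14-week tumour 6 were higher at 14 weeks, and without either 14-week tumour 4 were higher at 8 weeks. Without the first 14-week tumour, 9 members were called between 14 and 8 weeks.

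Metamorphed ph505 cells were compared with the same controls. All 18 regulatory genes had estimates above 0 (median 0.70) and 7 of them were called higher, while none of the 14 core genes was called (median 0.27, and below 0 under 2 other scalings, at −0.24 with total reads and −0.17 with quantiles). The median of all genes was −0.03. Over both particles 7 of 32 subunits were called higher and none lower, where 40.6% of all genes were called (21.6% higher and 19% lower). The higher calls thus made up a share near that of all genes. All metamorphed libraries lay above all controls for 16 regulatory and 5 core genes and below them for none, where this was so for 27.3% of all genes upward and 24.5% downward. For the core, 1 gene had an unadjusted p under 0.05 and limma-voom called 0.

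The members called higher were *Rpt4*, *Rpn10*, *Rpn13*, *Rpn3*, *Rpn12*, *Rpt1* and *Rpn2*. *Rpt4* read 322, 422 and 450 CPM in metamorphed cells, more than in any control (118 to 198), and rose by 1.35 ± 0.29 (adjusted p = 0.0024). *Rpn10* read 448, 399 and 595 CPM (1.23 ± 0.30, adjusted p = 0.0048) and *Rpn13* 198, 221 and 261 CPM (1.06 ± 0.25, adjusted p = 0.0046), both above their highest control. The *Rpn3* values were 351, 387 and 451 CPM, against 173 to 224 in controls (1.05 ± 0.35, adjusted p = 0.030). *Rpn2* read 228, 236 and 223 CPM, all above its controls, and rose by 0.70 ± 0.26 (adjusted p = 0.045). *Rpn1*, with 274, 318 and 262 CPM, also lay above its controls, without passing the test (0.63 ± 0.31, adjusted p = 0.13).

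The lowest estimates were those of core genes. *Prosalpha3* read 260, 168 and 262 CPM and *Prosalpha6* 156, 115 and 146 CPM in metamorphed cells, with the controls inside these ranges (−0.05 ± 0.38 and −0.02 ± 0.27, adjusted p = 0.94 and 0.97). *Prosbeta2* read 95.7, 80.3 and 126 CPM, also overlapping its controls (0.06 ± 0.28, adjusted p = 0.88).

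The number of calls between metamorphed cells and controls depended on the scaling. With CPM of total reads none of the 32 subunits was called, with quantile scaling 1 was, and with limma-voom 4, while a fit to these 2 groups alone called 11. The median regulatory gene stood 0.73 above the median of all genes, against 0.66 with total reads and 0.33 with quantiles, so that its direction was the same under each. *Rpt4*, *Rpn10* and *Rpn13* were called without each library in turn, and *Rpn3*, *Rpn12*, *Rpt1* and *Rpn2* were not. Markers of other cell types moved with the group. Summed fat body markers (9 genes, among them *Yp2*, *Lsp2* and *Fbp1*) stood at 2359 to 10314 CPM in metamorphed cells, 160 to 963 in controls and 1.01 to 16.1 in tumours, with 9 of 9 genes called higher in metamorphed cells than in controls. Summed haemocyte markers (6 genes) stood at 62.4 to 158 CPM in metamorphed cells, at most 26.3 in controls and at most 9.52 in tumours. Summed muscle markers (7 genes) ran from 139 to 1080 CPM in metamorphed cells, 132 to 237 in controls and 187 to 1142 in tumours, ranges that overlap, although 5 of 7 genes were called higher and 1 lower in metamorphed cells than in controls. The part of these cell types in the result was not tested. In such bulk samples, fewer cells of a type and less RNA per cell cannot be told apart.

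Metamorphed cells were also compared with tumours, both of ph505 but run on different sequencers, with only the tumours taken from hosts. In the core 7 of 14 genes were lower in metamorphed cells and none was higher (median −0.84), and in the regulatory particle 3 of 18 were higher and none lower (median 0.34). Over both particles 3 of 32 subunits were higher and 7 lower, where 46.4% of all genes tested were called (28.5% higher and 18% lower). The higher calls thus made up a smaller share than among all genes, and the lower calls a share near it. The regulatory calls turned with the scaling, since with quantiles 1 regulatory gene was higher and 2 were lower (median 0.025). The 7 lower genes were *Prosalpha6* (−1.51 ± 0.24, adjusted p = 0.00015), *Prosbeta1* (−1.44 ± 0.32), *Prosalpha2* (−1.28 ± 0.26), *Prosalpha3* (−1.22 ± 0.33), *Prosbeta5* (−1.09 ± 0.32), *Prosbeta3* (−0.99 ± 0.33) and *Prosbeta6* (−0.85 ± 0.26). The metamorphed values of *Prosalpha6*, *Prosalpha2* (147, 125 and 199 CPM) and *Prosbeta1* (192, 139 and 197 CPM) all lay below the lowest tumour. Those of *Prosbeta5* (547, 450 and 773 CPM) and *Prosbeta3* (288, 248 and 425 CPM) overlapped with the tumours.

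The 3 higher genes were *Rpn2* (1.34 ± 0.22, adjusted p = 0.00024), *Rpn1* (1.00 ± 0.27, adjusted p = 0.0076) and *Rpn3* (0.90 ± 0.31, adjusted p = 0.028). For each of them the metamorphed libraries lay above all 6 tumours, which reached 121 CPM for *Rpn2*, 258 for *Rpn1* and 315 for *Rpn3*. *Rpt2*, at 175, 260 and 284 CPM, overlapped with the tumours (0.52 ± 0.29, adjusted p = 0.16). Groups that did not overlap numbered 4 higher and 5 lower among the 32 subunits, where the shares of all genes were 23.8% and 14.1%. The split of the calls moved with the scaling, from 3 higher and 7 lower to 1 and 13 with total reads and 1 and 15 with quantiles. *Rpn2*, *Prosalpha2*, *Prosalpha6* and *Prosbeta1* were called under each alternative that was run. The calls of *Prosalpha3*, *Prosbeta3*, *Prosbeta5*, *Prosbeta6* and *Rpn3* were lost without at least 1 library. The call of *Rpn1* held without each library in turn and was lost in 3 of 17 other alternatives.

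Fold change went with transcript length among the members. Over the 32 subunits the log2 fold change between tumour and control fell with the logarithm of exonic length (Pearson's r = −0.78, Spearman's rho = −0.73), and the one between metamorphed cells and tumours rose with it (r = 0.82, rho = 0.79). For metamorphed cells against controls r was 0.40. These are descriptions across genes, which are not independent replicates, and the genes share their libraries. Within the core, where lengths differ little, r was −0.16 in tumours, and within the regulatory particle it was −0.67. With the trend of each library against length removed over all genes, 8 core and 4 regulatory genes were higher in tumours and none was lower, at medians of 0.71 and 0.28. For metamorphed cells against tumours, the median core gene relative to the median of all genes moved from −0.95 to −0.53 on this removal. The median regulatory gene moved from 0.24 to 0.27 on the same measure. A change with length and a change with membership of the core cannot be told apart for most core genes. Of the 18 regulatory genes under the symbol rule, only *Rpn12* and *Rpn11* were as short. Their estimates in tumours were 0.47 and 0.67, below those of every core gene but *Prosbeta2*. *Sem1*, outside the rule, stood at 1.68, and the short ribosomal protein genes at a median of 1.30. These differences were not tested.

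**Figure D4:**
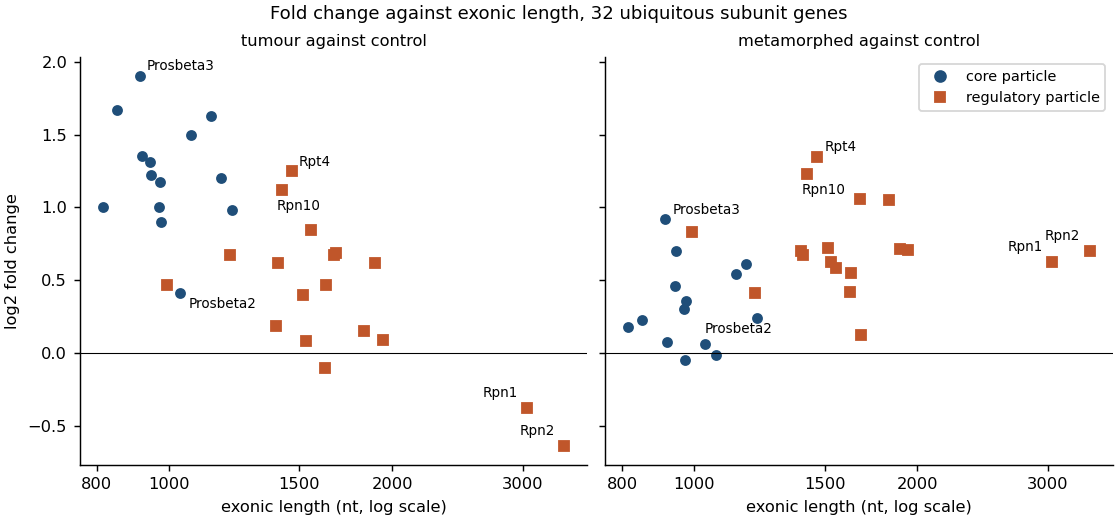
Log2 fold change of the 32 ubiquitous subunit genes against exonic length (log scale) in tumour against control (left) and metamorphed against control (right), with circles for core and squares for regulatory genes. On the left the points fall from *Prosbeta3* (1.91) to *Rpn1* (−0.38) and *Rpn2* (−0.64), the longest members, and on the right no such fall is seen; *Rpn2* is at 0.10 on the left once the length trend is removed.

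Most testis-type copies were read at or near 0. Of the 16 copies, 8 had no read in any library (*Prosalpha3T*, *Prosalpha4T1*, *Prosalpha6T*, *Prosbeta4R1*, *Prosbeta4R2*, *Prosbeta5R1*, *Prosbeta5R2* and *Rpn12R*). A count of 0 allows a level of up to 3 reads, which was 0.0420 CPM in the deepest library and 1.18 CPM in control 1. A further 4 copies had reads and did not pass the filter. *Prosalpha4T2* had 10, 17 and 17 reads in the metamorphed libraries and none elsewhere, *Prosbeta2R2* had 53 reads in the first 14-week tumour and 2 in the first 8-week tumour, *Rpt6R* had 1, 10 and 2 reads in the controls alone, and *Prosbeta2R1* had 2 reads in control 1. Of 16 testis markers, 9 had no read in tumours and 9 had none in metamorphed cells, and *can* and *comr* had none in any library. *betaTub85D*, a testis tubulin gene, was at 4.19 to 6.68 CPM in metamorphed cells, at most 0.784 in controls and at most 0.0404 in tumours, and was called higher in metamorphed cells than in controls (2.33 ± 0.37, adjusted p = 0.00022). The summed list stood at 22.2 to 71.2 CPM in every group because of *mia* and *twe*, which were read in all libraries.

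The 4 copies that passed the filter had unlike patterns. *Prosalpha1R* (chr2R:7830413-7831771) was at the level of a ubiquitous subunit, with 56.1, 70.9 and 72.9 CPM in controls, 70.1 to 291 (median 122) in tumours and 69.4, 90.0 and 92.4 in metamorphed cells, and it was called higher in tumours (1.01 ± 0.30, adjusted p = 0.019). It lies 1734 bases from *Prosalpha1* on the same strand, and its reads were 0.941 to 1.02 times those of *Prosalpha1* in every library. Near-identical neighbours can share reads, so the level of each of these genes is uncertain. *Rpt3R*, a copy of an ATPase gene, read 1.18, 4.51 and 5.45 CPM in controls and 1.28 to 12.2 (median 4.28) in tumours, and had 0 reads in all 3 metamorphed libraries. Its mean in controls was at least 69.3-fold above the floor of 3 reads in those libraries, and its mean in tumours at least 90.4-fold. These folds hold for the group means and not for each library, since control 1 had 3 reads. The limma estimates, on log2(CPM + 1), were −2.09 against controls and −2.30 against tumours. Both were called (adjusted p = 0.016 and 0.0031), although the first call was lost without control 2 or 3. *Rpt3R* passed the filter only through controls and tumours, so these tests are not independent of where it was high.

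*Rpt4R* had 2, 55 and 70 reads in controls (0.784, 1.70 and 3.35 CPM), none in any tumour, and 253 reads (4.15 CPM) in metamorphed library 3 with none in the other 2. Its mean in controls was at least 9.56-fold above the floor of the tumour libraries. The limma estimate for tumours against controls, on log2(CPM + 1), was −1.46 (adjusted p = 0.035). *Rpt4R* passed the filter only through control 2, control 3 and metamorphed library 3, so this test is not independent of where it was high. That call was lost without control 2 or 3 or any single tumour. *Rpn13R* stayed between 0.135 and 3.35 CPM in all libraries and was called in no main comparison.

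**Figure D5:**
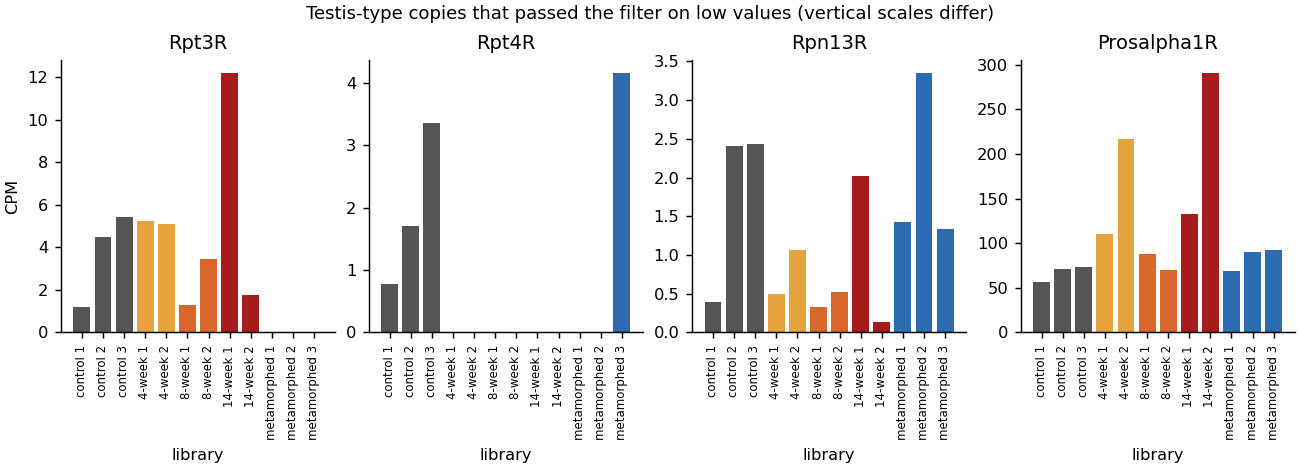
CPM of the 4 testis-type copies that passed the filter, 1 bar per library, with grey for controls, orange to red for 4-, 8- and 14-week tumours and blue for metamorphed cells; the vertical scales differ and start at 0. *Rpt3R* has no bar in the 3 metamorphed libraries, *Rpt4R* has none in the 6 tumours, *Rpn13R* stays under 3.5 CPM, and *Prosalpha1R* reaches 291 CPM.

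Other genes of the ubiquitin pathway were read from lists that were chosen with results of these data known. Of the proteasome activators and assembly factors (4 tested), *Pomp*, the chaperone of core assembly, was higher in tumours than in controls (1.77 ± 0.36, adjusted p = 0.0020), and its metamorphed level also lay above control (1.20 ± 0.41, adjusted p = 0.032). *REG*, the gene of an activator cap of the core, was higher in tumours (1.13 ± 0.23, adjusted p = 0.0019) and fell from tumours to metamorphed cells (−1.32 ± 0.23, adjusted p = 0.00030). Among stress-related transcription factors (5 tested), *maf-S* was higher in tumours (1.75 ± 0.41, adjusted p = 0.0053). Its partner *cnc*, the homologue of the mammalian factors that induce proteasome genes, was higher in metamorphed cells than in controls (1.69 ± 0.36, adjusted p = 0.0021), and stood at 0.80 ± 0.31 in tumours (adjusted p = 0.062).

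Of 7 genes for ubiquitin and its activating enzymes, 3 were higher and 1 lower in tumours, where 14.4% of all genes tested were higher and 21.6% lower. The ubiquitin fusions *RpS27A* (1.46 ± 0.35) and *RpL40* (1.28 ± 0.30) rose, and the polyubiquitin gene *Ubi-p63E* fell by 1.10 (± 0.37, adjusted p = 0.032). *Ubi-p63E* read 2625, 651 and 965 CPM in controls and 379 to 721 in tumours. Its highest value was in control 1, the shallowest library, and control 2 lay inside the tumour range. *Ubi-p5E*, another polyubiquitin gene, was higher in metamorphed cells than in controls (2.16 ± 0.32, adjusted p = 0.00013) and tumours (2.45 ± 0.28); the repeats of these genes are alike, so reads could be divided between them. Of 9 deubiquitinases and shuttle factors, *Sem1*, whose homologue is a lid subunit in yeast, was higher in tumours (1.68 ± 0.40, adjusted p = 0.0059), and the shuttle receptor *Ubqn* was lower (−1.41 ± 0.27, adjusted p = 0.0017). Of 9 cullin and SCF genes, 3 were higher and 3 lower in tumours, to be read beside the same shares of all genes. The RING subunit *Roc1a* (1.92 ± 0.32) and *Nedd8* (1.56 ± 0.38) were at the top, and the F-box gene *ago* (−1.74 ± 0.30) and *Cul1* (−1.16 ± 0.28) at the bottom.

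Other multi-subunit complexes gave points of comparison, to be read against the shares of all genes called, which were 14.4% higher and 21.6% lower in tumours against controls, 21.6% and 19% in metamorphed cells against controls, and 28.5% and 18% in metamorphed cells against tumours. The COP9 signalosome, which resembles the lid in its make-up, had 2 of 8 genes higher in tumours (*CSN5*, 1.06 ± 0.25, and *CSN4*, 0.91 ± 0.29) at a median of 0.57. *CSN5*, its catalytic subunit, fell from tumours to metamorphed cells (−1.85 ± 0.25, adjusted p = 3.8e-05). The chaperonin CCT had 2 of 7 genes higher in tumours (median 0.08) and 6 of 7 lower in metamorphed cells than in tumours (median −1.05). Cytosolic ribosomal protein genes, which are short like those of the core, had 66 of 80 higher and 1 lower in tumours (median 1.30), and 35 of 80 lower and none higher in metamorphed cells than in tumours (median −0.83). Their medians in tumours, 1.04, 0.72 and 2.08 at 4, 8 and 14 weeks, lay beside 1.33, 0.72 and 1.55 for the core. Single libraries moved these medians: relative to the mean of the controls, the median ribosomal gene stood at 0.66 and 1.42 in the 4-week, 1.01 and 0.44 in the 8-week, and 1.17 and 2.93 in the 14-week tumours, and the median core gene at 0.85 and 1.79, 0.93 and 0.47, and 1.15 and 2.10. Autophagy genes had 2 of 19 higher and 3 lower in tumours (median −0.31), and 7 of 19 higher and 1 lower in metamorphed cells than in controls (median 0.68). In tumours both autophagy counts lay, as shares of the list, below those of all genes.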

How the data were processed

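RNA sequencing of poly(A) RNA was analysed in 12 samples (3 controls, 2 tumours at each of 4, 8 and 14 weeks, 3 metamorphed). Per the labels and methods, RNA was isolated with the Arcturus PicoPure kit, libraries were made with SMARTSeq2 NexteraXT, and reads were aligned to dm6 with TopHat 2.0.12 and Bowtie 2.2.3 at very sensitive settings. The gene annotation and the strand setting of the counting are not given in the sources used here. The deposited values are log2 CPM per gene, which the authors computed with edgeR 3.16.5 after library normalisation with an average prior count of 2. Deposited log2 values were turned back into reads, and 100% lay within 0.01 of a whole read, so CPM here is reads over the effective library size. The design had assumed a CPM table, and limma on log2(CPM + 1) was kept. 3 reads were worth 0.0420 to 1.18 CPM.

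FlyBase IDs were paired with symbols through Ensembl release 115 (17215 of 17521 matched). limma 3.58.1 (R 4.3.3, with trend) was fitted to log2(CPM + 1) in 5 groups over 10177 genes with at least 1 CPM in at least 2 samples. The p-values measure the spread between these libraries. Shares of all genes called are those of the main fit at the adjusted p. No share of all genes tested is given for counts at an unadjusted p or under an alternative. Exonic length was the union of exons, known for 9953 of the genes tested. Exons of 13 ubiquitous members overlap those of other genes on the opposite strand, by up to 13.0% of *Rpt6*, so reads there cannot be assigned with certainty.

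Values by sample (for the 6 tumours, mostly the range and median) were printed for the 3 highest and 3 lowest ubiquitous members of each main comparison, any called against the median member, and testis-type copies that passed the filter. The members and lists were chosen with earlier results of these data known. Alternatives were other pseudocounts (0.1 and 5 CPM), filters, scalings, a fit to the compared groups alone, a block on replicate number, limma-voom, removal of each library's length trend (lowess, span 0.3), a threshold of 0.01, and each library left out. Listed symbols without a match (*TER94*, *Ufd1-like*, *CSN2*, *CCT8*, *Cul5*, *slmb*, *wupA*, *vas* and *nos*) are not analysed here. The fit was tested on simulated data. Python 3.11.15 with pandas 2.3.3 and NumPy 2.4.6 was used otherwise.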

Additional observations from a re-analysis of the deposited data

How the results depend on the processing

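Counts here are ubiquitous subunits called. With CPM of total reads, 10 were higher and 1 lower (11 in all) in tumours against controls, none was called in metamorphed cells against controls, and 8 were higher at 14 weeks. That scaling moved the median of all genes by −0.24 (tumour against control) and −0.44 (metamorphed against control), and the share of higher calls among all genes from 39.9% to 26.0% and from 53.2% to 36.3%. Quantile scaling moved that share in tumours to 55.4% and that of metamorphed cells against tumours from 61.3% to 43.4%, and it left 1 call in metamorphed cells against controls, 16 against tumours and 3 at 8 weeks. A fit restricted to the groups under comparison gave 11 calls in metamorphed cells against controls, 2 at 8 weeks and 1 at 14 weeks, from fits with fewer samples. At a threshold of 0.01 there were 11 calls in tumours, 3 and 6 in metamorphed cells against controls and against tumours, 10 at 4 weeks and 7 at 14 weeks. limma-voom left 4 and the fit without a trend 3 in metamorphed cells against controls. Removal of the length trend left 10 calls at 4 weeks (10 higher, none lower) and turned *Rpn2*, tumour against control, from −0.64 to 0.10. The cause was not tested for any of these.

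Without control 1 and the second 14-week tumour together (chosen after seeing the data) there were 4 calls at 14 weeks, 1 at 8 weeks and 1 between 8 and 4 weeks. With single libraries left out, calls ranged from 12 to 20 in tumours, 3 to 10 and 5 to 16 in metamorphed cells against controls and against tumours, 7 to 23 at 4 weeks, 0 to 4 at 8 weeks and 6 to 16 at 14 weeks. Between ages they ranged from 0 to 1 (8 against 4 weeks), 0 to 9 (14 against 8) and 0 to 0 (14 against 4). A lone library left in a group was assumed to vary like the other groups. Without a filter 8 testis-type copies were tested, and with at least 5 CPM in 3 samples 2 were. Undivided by length, control levels spanned 7.21-fold rather than 9.69-fold.

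Replicate numbers showed no pairing common to all groups: deviations of same-numbered samples had a mean correlation of −0.017 (21 pairs, −0.20 to 0.27). Among tumours this correlation was 0.27 between 4 and 14 weeks, −0.11 between 4 and 8 weeks and −0.20 between 8 and 14 weeks. Whether the ages share lines of tumour was not tested, so their independence is not shown. The replicate block gave 17 calls in tumours (17 higher), 5 and 10 in metamorphed cells against controls and against tumours, 19 at 4 weeks, 0 at 8 weeks and 15 at 14 weeks. Crossing the 8-week numbers (chosen after seeing the data) gave 18 in tumours and 1 at 8 weeks.

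The planned edgeR and DESeq2 tests were not run, and limma-voom was the count-based alternative on the recovered reads. Not run either were protein comparisons and promoter motifs, for which sequences are not used here. Control 1, with 2072498 reads, limits low copies most.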
